A study of Mus musculus with 18 samples.

Results

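Tspan12, Ing3, Fam3c, Aass, Wasl and Pot1a are neighbours on mouse chromosome 6, between 21.7 and 25.9 Mb of the GRCm39 build, and were described here in 18 mouse mammary tumors. They were 6 of the 57126 genes in the count table, and were chosen by name because their RNA levels moved together in single tumors and because of their place beside Met, so the level of each gene in each tumor over its 18-tumor median, and the relation to Met, are given as descriptions with no test. The interval held 53 annotated genes, of which 26 were protein-coding, and 24 of the 53 passed the filter on low counts over the 18 tumors. All 6 chosen genes passed it. The other 18 were 14 protein-coding genes, named below with some of their values, and 4 of other types.

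Bulk RNA was sequenced from 7 MaP R172H/- tumors, 5 MaP R245W/- tumors and 6 MaP -/- tumors, to ask how tumors that express a p53 missense mutant differ from tumors without p53. In all 3 groups an adenovirus carrying Cre recombinase was injected into the mammary gland of the mouse, where recombination left 1 Trp53 allele that encodes p53 R172H or R245W and 1 deleted allele, or 2 deleted alleles. Cre acts only in cells that the virus infects, and the other cells of a tumor, such as its stroma, keep unrecombined alleles. The mice were killed when tumor burden required it, and the labels used here give no ages.

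A Cre-activated fluorescent reporter, Rosa26 LSL-TdTomato, was listed in the genotype of 3 MaP R172H/- tumors (YZ2, YZ6 and YZ10) and 3 MaP R245W/- tumors (JM1233, JM1564 and RM0014), and in none of the MaP -/- tumors. Mice JM663 and JM833 each gave 2 of the MaP -/- tumors, so this group stood for 4 animals. The MaP R172H/- libraries were sequenced on a HiSeq 4000 and the others on a NovaSeq 6000, and genotype and instrument cannot be told apart in any comparison with MaP R172H/- tumors. The study classes the MaP R172H/- tumors as luminal B or HER2-enriched and the others as triple-negative. Genotype and molecular subtype thus cannot be told apart in those comparisons either. DNA copy number was not analysed here.

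Total counts ranged from 23113578 to 37365062 per tumor, and tumors of the same group correlated with a Spearman coefficient of 0.862 to 0.970 across genes. Trp53 itself measured 10.1 to 51.4 CPM, the count of a gene scaled to 1e+06 counts of its tumor, in MaP R172H/- tumors, 8.48 to 51.4 CPM in MaP R245W/- tumors and 9.20 to 25.9 CPM in MaP -/- tumors. In 4 tumors labelled as mutant it was no higher than in the highest MaP -/- tumor, at 10.1 CPM in YZ11, 11.7 CPM in JM1233, 23.4 CPM in JM1126 and 8.48 CPM in RM0014, the last below every MaP -/- tumor. The summed level of 5 luminal epithelial markers (Epcam, Krt8, Krt18, Krt19 and Cdh1) ranged from 134.5 to 7494 CPM, and no luminal marker was at 0 in any tumor. Summed adipocyte markers reached 3148 CPM in JM833-T1 and summed skeletal muscle markers 813 CPM in JM1233, against medians of 22.9 and 3.51 CPM over the 18 tumors.

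The 6 genes have unrelated products and share a stretch of chromosome. TSPAN12 is a membrane tetraspanin that helps Frizzled4 respond to the ligand Norrin, ING3 is a histone-reading subunit of the NuA4/TIP60 acetyltransferase complex, and FAM3C is a secreted protein linked to epithelial-to-mesenchymal transition in mammary cells. AASS is the mitochondrial enzyme that opens lysine breakdown, N-WASP, the product of Wasl, switches on the actin-branching Arp2/3 complex, and POT1A binds the single-stranded end of telomeres within shelterin. Met, further up the chromosome, encodes the receptor for hepatocyte growth factor.

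In the order they lie on the chromosome, Tspan12 (ENSMUSG00000029669.15, minus strand) spans chr6:21771389-21852619 and Ing3 (ENSMUSG00000029670.13, plus strand) chr6:21949539-21976047. Fam3c (ENSMUSG00000029672.17, minus strand) spans chr6:22306519-22356242 and Aass (ENSMUSG00000029695.14, minus strand) chr6:23072172-23132991. Wasl (ENSMUSG00000029684.15, minus strand) spans chr6:24613804-24665091 and Pot1a (ENSMUSG00000029676.16, minus strand) chr6:25743510-25809265. From the start of Tspan12 to the end of Pot1a the block measured 4.04 Mb, and the gap between Met (chr6:17463749-17573979) and Tspan12 was 4197409 bases. The wider gaps within the block were 715929 bases between Fam3c and Aass, 1.48 Mb between Aass and Wasl and 1.08 Mb between Wasl and Pot1a. An annotated gene on the same strand, Gm42856, overlaps Wasl, and Gm30270 overlaps Tspan12 on the other strand, so reads of these pairs may not be fully separated.

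The DNA before the start of each gene was read from RefSeq promoters, which matched all 6 genes. Each of the sequences was found exactly 1 time on chromosome 6 of GRCm39. The 250 bases before the RefSeq start were searched for motifs. GENCODE places the start of each gene further out, so that the last 87 of these bases for Tspan12, 162 for Fam3c, 6 for Aass and 48 for Pot1a lie inside the GENCODE gene. The bases outside it are shown for these 4 genes, whose levels separated the tumors described below. They come from chr6:21852620-21852782, chr6:22356243-22356330, chr6:23132992-23133235 and chr6:25809266-25809467 and are written 5′ to 3′ on the gene's own minus strand, with capitals marking motif letters on either strand. The letters searched were TATAAA for the TATA box and CCAAT for the box of that name. For the GC box they were GGGCGG and for the E-box CACGTG.
Tspan12: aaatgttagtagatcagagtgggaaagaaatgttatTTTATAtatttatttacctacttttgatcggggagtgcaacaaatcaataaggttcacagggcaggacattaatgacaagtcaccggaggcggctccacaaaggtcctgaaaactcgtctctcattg
Fam3c: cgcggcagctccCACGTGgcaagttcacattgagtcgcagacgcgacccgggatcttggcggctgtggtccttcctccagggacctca
Aass: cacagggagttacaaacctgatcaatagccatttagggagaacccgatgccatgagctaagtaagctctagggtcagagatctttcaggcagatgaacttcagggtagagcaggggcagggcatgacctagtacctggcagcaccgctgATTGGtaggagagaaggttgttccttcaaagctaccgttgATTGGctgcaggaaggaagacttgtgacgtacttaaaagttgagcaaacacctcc
Pot1a: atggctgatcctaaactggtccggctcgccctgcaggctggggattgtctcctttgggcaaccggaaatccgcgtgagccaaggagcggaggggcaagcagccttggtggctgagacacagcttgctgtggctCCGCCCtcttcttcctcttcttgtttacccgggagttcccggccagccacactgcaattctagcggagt
The 250-base windows of these genes differed in base composition, with a GC content of 42.0% for Tspan12, 50% for Aass, 61.6% for Pot1a and 73.6% for Fam3c, against a median of 52.4% over 32851 promoters. In the windows of the 6 genes, a TATA box was found before Tspan12 alone and an E-box before Fam3c alone, and 12.4% and 6.02% of all promoters held these letters. A CCAAT box was found before 5 of the 6 genes, Pot1a being the exception, against 33.8% of all promoters, and a GC box before Ing3, Fam3c, Wasl and Pot1a, against 32.7%. The AP-1 letters TGANTCA and the Nr5a2 letters AAGGTCA were found before none of the 6, against 6.75% and 4.08% of all promoters. A match of so few letters is a description of the sequence and not a bound site.

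Per kilobase of exon, the median level over the 18 tumors was highest for Fam3c, at 49.1 CPM per kilobase. Wasl followed at 15.5, Tspan12 at 12.01, Ing3 at 9.06, Pot1a at 5.34 and Aass at 2.52 CPM per kilobase, against 1071 CPM per kilobase for Met. The levels of all 6 genes spread widely between tumors. From the lowest to the highest tumor Wasl differed 13.02-fold, Ing3 30.3-fold, Pot1a 54.5-fold, Fam3c 61.4-fold, Tspan12 146-fold and Aass 246-fold.

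High levels came from few tumors, and from different stretches of the block in different tumors. Of the 108 values (6 genes in 18 tumors), 27 reached at least 2 times the gene's 18-tumor median, and 10 tumors held no such value. The share of all genes at this ratio was 4.13% to 21% by tumor. YZ6 was high for all 6 genes, JM836-T1 for the 3 genes nearest to Met, and JM833-T2 for the 3 genes farthest from it. The heat map of log2 ratios shows these stretches with the genes that lie between and beside the 6.

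**Figure D1:**
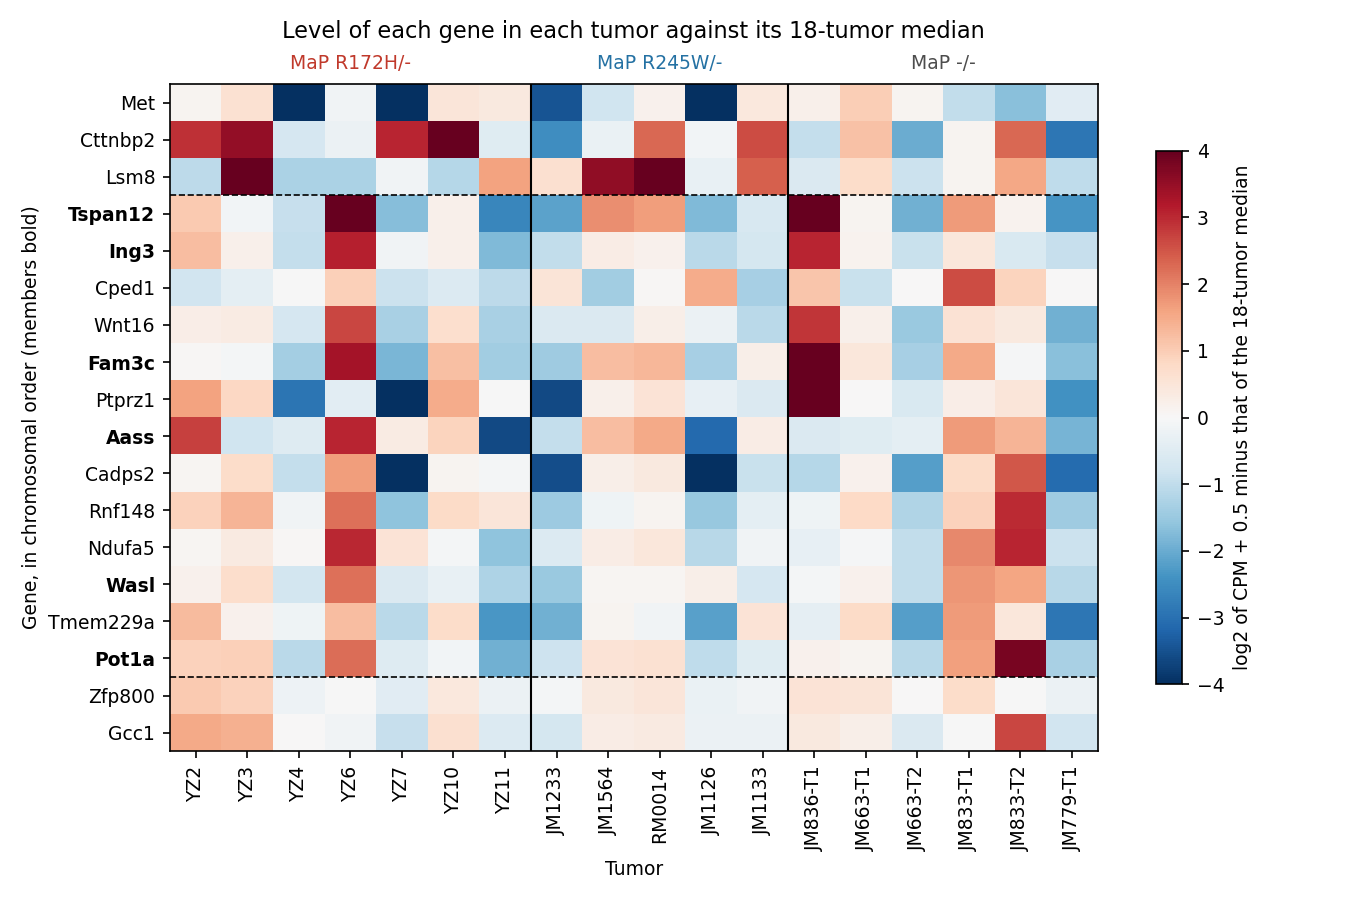
Each column is a tumor and each row a gene in chromosomal order, and the colour is log2 of CPM + 0.5 minus log2 of the 18-tumor median CPM + 0.5, with the scale ending at -4 and 4. The 6 genes are in bold, dashed lines mark the edges of the interval, and genes with a median under 1 CPM are left out. YZ6 is red from Tspan12 to Pot1a except at Ptprz1, JM836-T1 from Tspan12 to Ptprz1 and JM833-T2 from Aass to Pot1a.

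In YZ6, a MaP R172H/- tumor, all 6 genes were at 2 times their median or more, against 7.66% of all genes tested in that tumor. The ratios were 20.5 for Tspan12, 8.64 for Ing3, 9.97 for Fam3c, 8.602 for Aass, 4.61 for Wasl and 4.78 for Pot1a. Of the 14 other protein-coding genes, 11 were also at 2 times their median or more, among them the Wnt ligand gene Wnt16 at 8.05 times, the vesicle-release gene Cadps2 at 3.17 times and the respiratory complex I gene Ndufa5 at 8.14 times. The other 3 were Cped1 at 1.97 times, Fezf1 at 1.33 times and Ptprz1, a receptor tyrosine phosphatase gene between Fam3c and Aass, at 0.750 times.

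JM836-T1, a MaP -/- tumor, had a break in level inside the block. Tspan12 was at 22.9 times its median, Ing3 at 8.41 times and Fam3c at 17.3 times, while Aass was at 0.655 times, Wasl at 0.950 times and Pot1a at 1.12 times. Those 3 genes of 6 stand against 6.33% of all genes in this tumor. Between them lay Wnt16 at 9.25 times and Ptprz1 at 18.3 times, and past Ptprz1 (chr6:22875358-23054236) the next protein-coding gene, Aass, was not raised. Of the filtered protein-coding genes beyond it in the interval, only Gpr37 was at 2 times its median or more, at 2.23 times and 1.23 CPM. Cadps2, beyond Aass, was at 0.455 times and Ndufa5 at 0.789 times.

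JM833-T2, another MaP -/- tumor, showed the opposite arrangement. Tspan12 was at 1.12 times its median, Ing3 at 0.647 times and Fam3c at 0.966 times, while Aass was at 2.63 times, Wasl at 2.99 times and Pot1a at 14.1 times. Those 3 of 6 are read against 19.4% of all genes, a high share that this tumor had in common with JM833-T1 from the same mouse. Ptprz1 was at 1.39 times, Cadps2 at 5.60 times, Rnf133 at 11.2 times, Rnf148 at 11.4 times, Ndufa5 at 8.29 times and Gpr37, an orphan receptor gene next to Pot1a, at 9.66 times. Rnf133 and Rnf148 are RING finger genes within the span of Cadps2, from which their reads may not be fully separated.

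JM833-T1 was raised more evenly. Its ratios were 3.27 for Tspan12, 1.37 for Ing3, 2.86 for Fam3c, 3.35 for Aass, 3.44 for Wasl and 3.13 for Pot1a. Those 5 of 6 at 2 times or more stand against 21% of all genes in this tumor, the highest share of the 18. Its summed adipocyte markers, at 3148 CPM, were also the highest, and the part of these cells in the ratios was not tested. In bulk RNA, fewer cells of a type and less RNA per cell cannot be told apart.

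**Figure D2:**
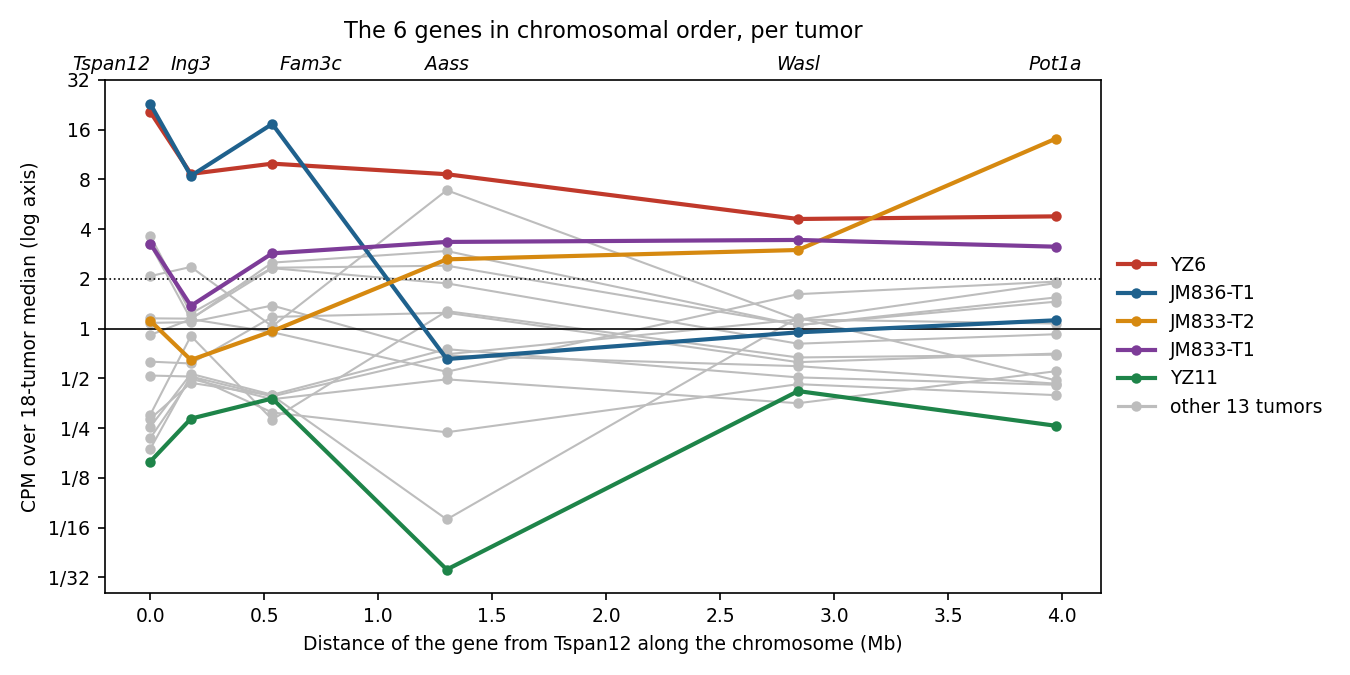
The horizontal axis is the distance of each gene from Tspan12 in Mb and the vertical axis, on a log scale, is CPM over the 18-tumor median, with 1 line per tumor and a dotted line at 2 times. The line of JM836-T1 falls from 17.3 at Fam3c to 0.655 at Aass, that of JM833-T2 climbs from 0.966 at Fam3c to 14.1 at Pot1a, and YZ6 stays at 4.61 or above throughout.

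4 further tumors had at least 1 of the 6 genes at 2 times its median or more. YZ2 had Tspan12 at 2.08 times, Ing3 at 2.36 times and Aass at 6.88 times, against 6.05% of all genes. JM1564 and RM0014, both MaP R245W/-, shared their genes, with Tspan12 at 3.65 and 3.23 times, Fam3c at 2.34 and 2.51 times and Aass at 2.41 and 2.95 times, against 7.61% and 4.68% of all genes. In both of these tumors Ing3, Wasl and Pot1a stayed between 1.05 and 1.54 times. YZ10 had Fam3c alone, at 2.32 times, against 6.81% of all genes.

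The remaining 10 tumors had none of the 6 genes at 2 times the median, against shares of all genes of 4.82% in YZ3, 12.7% in YZ4, 13.7% in YZ7, 7.94% in YZ11, 12.4% in JM1233, 10.4% in JM1126, 4.13% in JM1133, 5.61% in JM663-T1, 8.59% in JM663-T2 and 9.19% in JM779-T1. In 5 of them, YZ4, YZ11, JM1233, JM663-T2 and JM779-T1, all 6 genes lay below their medians. YZ11 was the lowest of the 18 tumors for Tspan12, Ing3, Aass and Pot1a, with ratios of 0.0349 for Aass to 0.419 for Wasl. Aass rested on 8 counts in this tumor, 0.336 CPM with a 95% exact (Clopper-Pearson) interval of 0.145 to 0.662 CPM for counting error alone. The same tumor had the highest summed luminal markers, 7494 CPM.

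At the proximal edge, Kcnd2 (chr6:21214866-21729804), a potassium channel gene with a median of 0.621 CPM, straddles the boundary and was at 5.97 times its median in YZ6 and 3.79 times in JM836-T1. Tspan12 is the first of the filtered protein-coding genes wholly inside. The nearest protein-coding genes outside that passed the filter were Cttnbp2, Lsm8 and Ankrd7. In YZ6 these were at 0.836, 0.407 and 0.217 times their medians, and in JM836-T1 at 0.499, 0.668 and 0.993 times, so the high levels of Tspan12 and Kcnd2 were not shared by these 3 genes. In JM833-T2 they were at 5.11, 2.95 and 12.05 times while Tspan12 was at 1.12 times. Ankrd7 had a median of 0.188 CPM, too low for its ratios to weigh much.

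Pot1a is the last of the 6 before the distal edge, and Grm8, Zfp800 and Gcc1 followed outside. Zfp800, a zinc finger gene at 42.9 CPM in the median tumor, was at 0.988 times in YZ6, 1.68 times in JM833-T1 and 0.981 times in JM833-T2. Gcc1, a Golgi protein gene, was at 0.905 times in YZ6 but 6.44 times in JM833-T2. Grm8 had a median of 0.414 CPM and was at 2.26 times in YZ6 and 4.10 times in JM833-T2.

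Over all 23 filtered genes with their midpoint in the interval, the median log2 ratio was 2.20 in YZ6, 1.64 in JM833-T1 and 1.28 in JM833-T2. YZ2 followed at 0.70, with 12 of the 23 genes at 2 times their median or more, and then YZ10 at 0.21. JM836-T1 stood at 0.05, since its high genes were 8 of the 23. At the other end were JM779-T1 at -1.11 and YZ11 at -1.05. In YZ6 the median fell to 0.00 for the 15 genes between the interval and 29 Mb, rose to 1.37 for the 54 genes from 29 to 32 Mb and was 0.16 from 60 Mb to the end of the chromosome, and with protein-coding genes alone the first of these medians was -0.02 and the second 1.39. In JM833-T2 the order of the first and second windows depended on the genes taken, with 0.29 and 1.88 over all types but 1.27 and 0.77 over the 7 and 33 protein-coding genes. In JM836-T1 the window from 16 to 19 Mb, which holds Met, had a median of 0.80 over 33 genes and 0.10 over its 13 protein-coding genes.

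The 3 genes nearest to Met had similar levels across the 18 tumors, as had Wasl and Pot1a. Pearson coefficients of log2(CPM + 0.5) were 0.961 for Tspan12 with Fam3c, 0.923 for Tspan12 with Ing3, 0.879 for Ing3 with Fam3c and 0.882 for Wasl with Pot1a. The other 11 pairs lay between 0.511 (Ing3 with Pot1a) and 0.731 (Aass with Pot1a). Distance did not order them, since Fam3c and Aass, next to each other among the 6, had 0.553 and Tspan12 and Pot1a, at opposite ends, 0.632. By Spearman the coefficient of Tspan12 with Pot1a, 0.812, exceeded that of Ing3 with Fam3c, 0.802. These coefficients are descriptions over 18 tumors, and the genes of a tumor share its library, depth and cell composition. YZ6 alone was high in every gene.

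The tumors with 3 or more of the 6 genes at 2 times the median had Met levels between 2624 and 9608 CPM, in the middle of its range. The 4 tumors with the lowest Met, YZ7 at 56.4, YZ4 at 222, JM1126 at 442 and JM1233 at 758 CPM, had no gene of the 6 at 2 times its median, and their highest ratio was 1.28. Nor had the 2 tumors with the highest Met, JM663-T1 at 16205 CPM and YZ3 at 12718 CPM. Met was at 7551 CPM in YZ6, 9608 CPM in JM836-T1, 4156 CPM in JM833-T1 and 2624 CPM in JM833-T2, or 0.912, 1.16, 0.502 and 0.317 times its own median of 8277 CPM.

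Met was at 758 CPM or less in 4 tumors and at 2624 CPM or more in the other 14, a split drawn after the values were seen. Levels also differed widely within the 4, from 56.4 to 758 CPM. The relation of the 6 genes to Met differed with the tumors taken. Within the 14 tumors at 2624 CPM or more the Pearson coefficient with Met on the log2 scale was -0.13 for Tspan12, 0.05 for Ing3, -0.01 for Fam3c, -0.34 for Aass, -0.46 for Wasl and -0.58 for Pot1a, with a median of -0.23. The 4 tumors with the lowest Met were too few for a coefficient of their own. Pooled over all 18 tumors it was 0.365 for Tspan12, 0.294 for Ing3, 0.495 for Fam3c, 0.166 for Aass, 0.180 for Wasl and 0.202 for Pot1a, with a median of 0.248. The positive median over 18 tumors was thus not seen once the 4 tumors with the lowest Met were left out.

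Without YZ7 and YZ4 alone, the tumors farthest from the Met median, the median coefficient was 0.279. It was 0.357 within the 7 MaP R172H/- tumors and 0.412 within the 11 tumors of the other 2 groups. Each of these sets held 2 of the 4 tumors with the lowest Met. Over 18 tumors the median Spearman coefficient was 0.162 and the median Pearson coefficient on linear CPM 0.0917. All coefficients are descriptions, since the genes of a tumor share its library and depth and the relation to Met was a reason for choosing them.

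**Figure D3:**
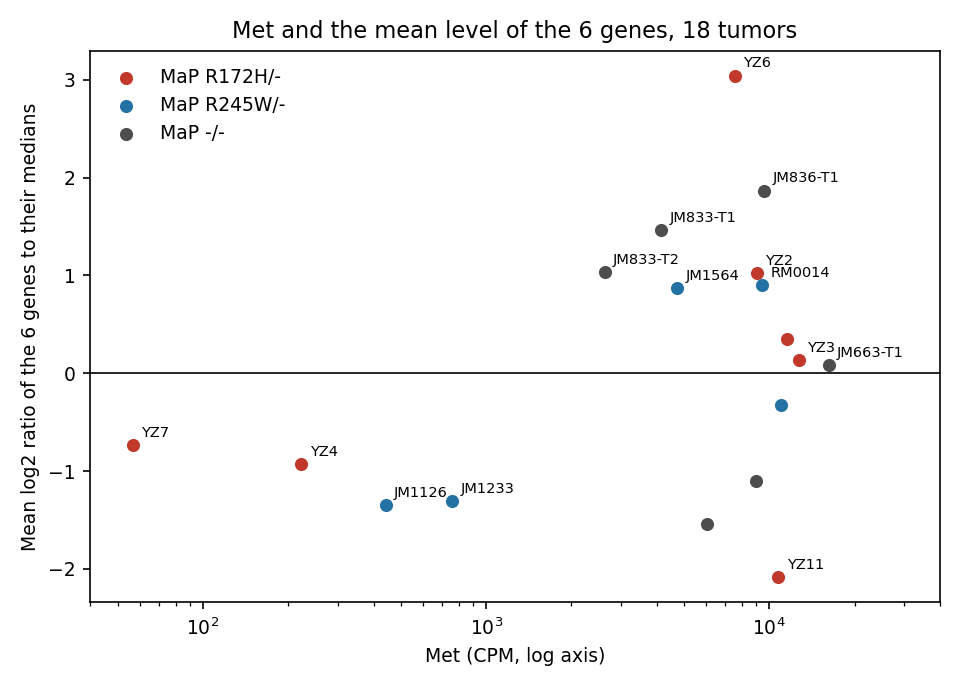
Each point is a tumor, coloured by genotype, with Met in CPM on a log axis and the mean log2 ratio of the 6 genes to their medians on the vertical axis. The 4 tumors with 758 CPM of Met or less all lie below 0, while the other 14 run from -2.09 (YZ11) to 3.04 (YZ6).

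Between Trp53 genotypes, none of the 6 genes differed beyond the spread between tumors, and their levels overlapped in every comparison. By edgeR's quasi-likelihood test with Benjamini-Hochberg adjustment, a call needed an adjusted p below 0.05 and a log2 fold change of at least 1. MaP R172H/- against MaP -/- tumors called 0 of the 6, against 5.02% of 20954 genes. MaP R245W/- against MaP -/- tumors called 0 of the 6, against 0% of 21452 genes, of which 2527 had an unadjusted p below 0.05, while DESeq2 called 303 genes. MaP R172H/- against MaP R245W/- tumors called 0 of the 6, against 6.19% of 22481 genes. The count at an unadjusted p below 0.05 was also 0 in each comparison, by edgeR and by DESeq2's Wald test, while by edgeR 24.7%, 11.8% and 25.9% of all genes tested were below it in the order given. It was again 0 without the 4 mutant tumors whose Trp53 level was no higher than in the highest MaP -/- tumor. The median log2 fold changes of the 6 genes were -0.20, -1.33 and 0.72 in these comparisons, beside medians near 0.00, 0.02 and 0.00 over all genes tested.

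**Figure D4:**
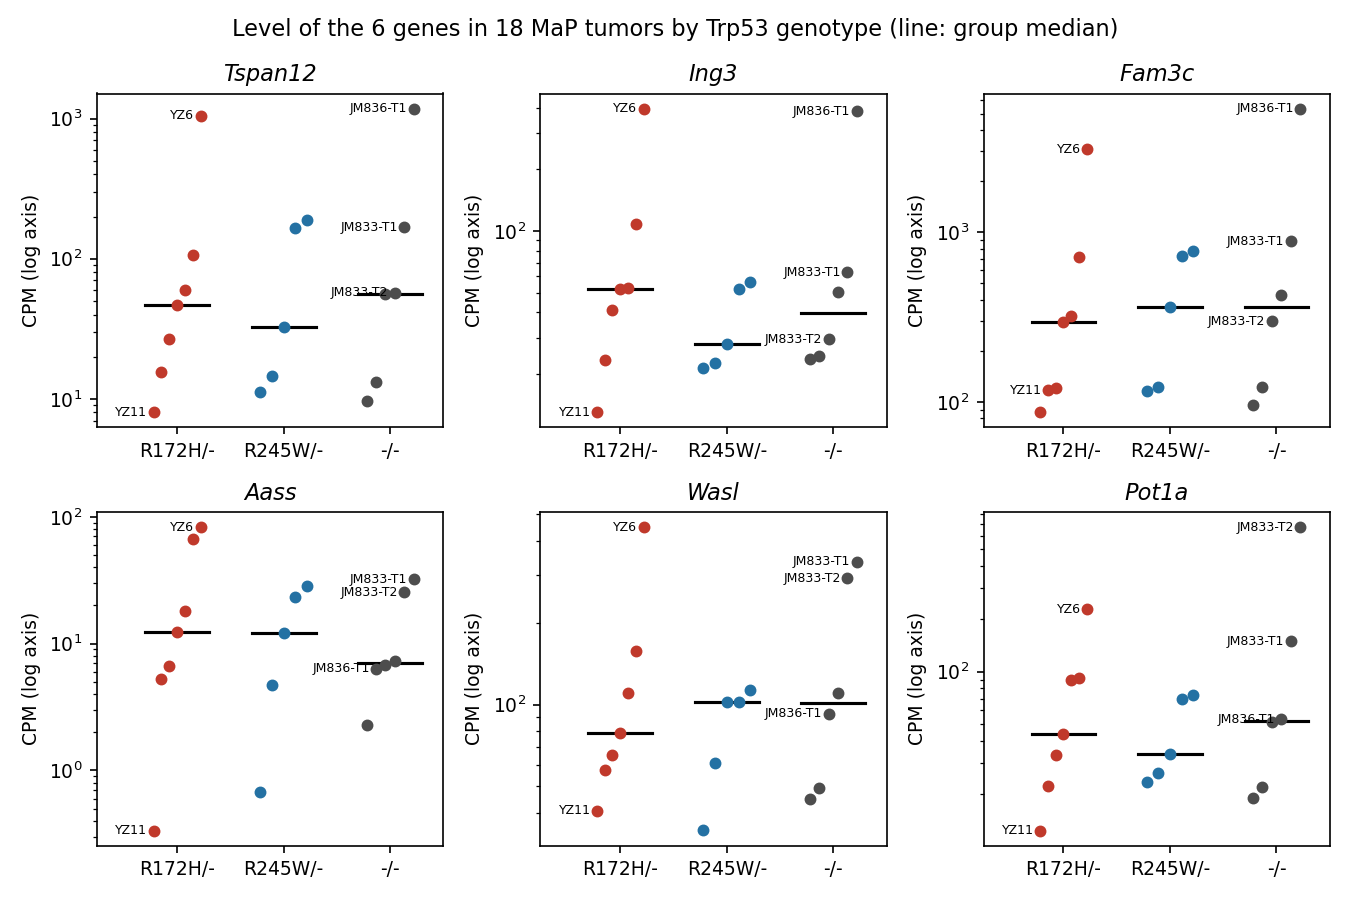
Each point is the CPM of a gene in a tumor on a log axis, by genotype, with a line at the group median and the names of the tumors described in the text. The highest points of Tspan12, Ing3 and Fam3c are YZ6 and JM836-T1, and those of Pot1a are JM833-T2 and YZ6.

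Tspan12 was lowest in YZ11 at 8.07, with a median of 47.1 and YZ6 highest at 1051 CPM, in the MaP R172H/- tumors. The 5 MaP R245W/- tumors measured 11.2, 14.6, 32.5, 166 and 187 CPM. MaP -/- tumors ran from 9.63 through a median of 56.5 to 1176 CPM in JM836-T1. YZ6 and JM836-T1 were 9.83 and 6.99 times above the next tumor of their group, and all 3 groups shared a range at the low end. The edgeR log2 fold change was -0.38 ± 1.26 (SE) for MaP R172H/- against MaP -/- (adjusted p = 0.882) and -1.47 ± 1.25 for MaP R245W/- against MaP -/- (adjusted p = 0.657). For MaP R172H/- against MaP R245W/- it was 1.05 ± 1.31 (adjusted p = 0.657). Without JM836-T1 the value against MaP -/- turned to 1.79 for R172H and 0.69 for R245W, and without YZ6 the value between the mutants turned to -1.02.

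Of 10 genes of Norrin and Frizzled4 signalling, Tspan12 included, none passed an adjusted p of 0.05 in any comparison by edgeR or DESeq2, against 8.4%, 0% and 9.4% of all genes by edgeR. In this and the other gene lists a gene passed on the adjusted p alone, with no fold change threshold. The share of all genes that passed so by DESeq2 is not given. With the threshold, edgeR and DESeq2 called 1051 and 2128 genes in MaP R172H/- against MaP -/- tumors. Between the mutants they called 1392 and 2405. At an unadjusted edgeR p below 0.05 there were 2 genes of this list in MaP R172H/- against MaP -/-, where 24.7% of all genes were, and 0 in the others. Those were Fzd4, the receptor gene, with 19.1 ± 8.65 CPM in MaP R172H/- (SD, n = 7) and 61.5 ± 88.1 CPM in MaP -/- tumors (n = 6; edgeR adjusted p = 0.129), and the beta-catenin target Axin2, with 17.3 ± 6.27 and 9.90 ± 5.67 CPM (edgeR adjusted p = 0.160). In YZ6, where Tspan12 was at 20.5 times, the other 9 genes had a median ratio of 0.985, and in JM836-T1 the median was 1.10. The ligand gene Ndp was at 2 times or more in both. It was so too in YZ7, YZ10, JM1233, JM663-T1 and JM833-T2, where Tspan12 was at 0.218 to 1.16 times. Its level was low, with a mean of 4.37 CPM in MaP R172H/- and 1.20 CPM in MaP -/- tumors.

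Ing3 ran from 13.1 in YZ11 through a median of 52.2 to 395 CPM in YZ6 among MaP R172H/- tumors. Its 5 values in MaP R245W/- tumors were 21.5, 22.7, 28.2, 52.1 and 56.5 CPM. The MaP -/- tumors lay between 23.8 and 385 CPM, JM836-T1 being the highest, with a median of 39.9 CPM. All 5 MaP R245W/- values fell inside the MaP R172H/- range, and the values of 21.5 and 22.7 CPM lay below the lowest MaP -/- tumor. Its edgeR log2 fold changes were 0.05 ± 0.85 (adjusted p = 0.976), -1.27 ± 0.77 (adjusted p = 0.525) and 1.296 ± 0.84 (adjusted p = 0.351), in the order of comparisons given above for Tspan12. The sign of the first value was not stable, at -0.94 without YZ6, 1.46 without JM836-T1 and -0.15 to -0.07 without any other single MaP -/- tumor, and the second turned to 0.12 without JM836-T1.

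Among 17 NuA4/TIP60 genes, 1 passed between the mutants by edgeR, against 9.4% of all genes. It was the chromodomain subunit gene Morf4l1, lower in the R172H tumors at 79.5 ± 23.4 CPM (SD, n = 7) than in the R245W tumors at 125.2 ± 13.1 CPM (n = 5; log2 fold change -0.77 ± 0.20, edgeR adjusted p = 0.0213). By DESeq2 that gene alone passed as well. Against MaP -/- tumors 0 of 17 passed for either mutant by edgeR or DESeq2, where 8.4% and 0% of all genes did by edgeR. At an unadjusted edgeR p below 0.05 there were 4 and 2, against 24.7% and 11.8% of all genes. The 16 genes other than Ing3 had median ratios of 1.004 in YZ6 and 1.01 in JM836-T1, and none of them reached 2 times its median in either tumor.

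Fam3c had the highest level per kilobase of the 6. In MaP R172H/- tumors its CPM was 87.3 in YZ7, 295 in the median tumor and 3084 in YZ6. The MaP R245W/- tumors stood at 116, 122, 365, 723 and 777 CPM. In MaP -/- tumors the lowest was 96.3, the median 363 and the highest, JM836-T1, 5363 CPM. The 3 groups thus began at nearly the same level and differed in their top tumors. The edgeR log2 fold changes were -0.81 ± 1.04 (adjusted p = 0.673), -1.38 ± 1.04 (adjusted p = 0.613) and 0.54 ± 1.04 (adjusted p = 0.789). Without JM836-T1 the values against MaP -/- turned to 1.03 and 0.44, and without YZ6 the value between the mutants turned to -0.74.

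Of 6 genes in the list of the FAM3 family and LIF receptor subunits, 5 were tested and 0 passed in any comparison by edgeR or DESeq2, also at an unadjusted edgeR p below 0.05. By edgeR 8.4%, 0% and 9.4% of all genes passed, and 24.7%, 11.8% and 25.9% had such an unadjusted p. Lifr, a receptor subunit reported to bind FAM3C, measured 109 ± 61.8 CPM in MaP R172H/- (SD, n = 7), 67.6 ± 18.3 CPM in MaP R245W/- (n = 5) and 126 ± 84.3 CPM in MaP -/- tumors (n = 6). Of the 4 genes other than Fam3c, Fam3d alone was at 2 times its median or more in YZ6, at 5.33 times, and in JM836-T1, at 2.44 times. Its level was low, with 0.350 CPM on average in MaP R172H/- and 0.708 CPM in MaP -/- tumors.

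Aass had the lowest level per kilobase. Its CPM ran from 0.336 in YZ11 through 12.3 to 82.8 CPM in YZ6 in the MaP R172H/- tumors, where YZ2 was close behind at 66.3 CPM. MaP R245W/- tumors measured 0.676, 4.76, 12.02, 23.2 and 28.4 CPM, and MaP -/- tumors 2.28 at the lowest, 6.99 in the median and 32.3 at the highest, in JM833-T1. JM836-T1, the top tumor for Tspan12 and Fam3c, lay at 6.31 CPM, below the median of its group. The edgeR log2 fold changes were 1.21 ± 0.91 (adjusted p = 0.436), 0.30 ± 0.80 (adjusted p = 0.900) and 0.86 ± 0.97 (adjusted p = 0.620). Without RM0014 the second turned to -0.14.

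In the list of lysine breakdown, which holds Aass, Dld and Echs1 passed the test in a comparison and Aass in none. By edgeR 1 of 11 tested genes passed for MaP R172H/- against MaP -/-, where 8.4% of all genes did. It was Dld, which encodes the shared E3 subunit of mitochondrial dehydrogenases. It was lower in R172H, at 58.1 ± 8.33 CPM (SD, n = 7) and 88.9 ± 14.5 CPM (n = 6; log2 fold change -0.54, edgeR adjusted p = 0.0466). Against MaP R245W/- tumors 2 passed, where 9.4% of all genes did, and both were lower in R172H. These were Dld (log2 fold change -0.59, edgeR adjusted p = 0.0251) and the enoyl-CoA hydratase gene Echs1, at 37.1 ± 7.20 and 62.1 ± 22.7 CPM (log2 fold change -0.87, edgeR adjusted p = 0.0136). By DESeq2 Dld and Echs1 passed in both comparisons and, between the mutants, also Dlst (edgeR adjusted p = 0.0634). Over all genes, too, DESeq2 called more than edgeR in both. MaP R245W/- against MaP -/- gave 0 of 11 by edgeR and DESeq2, and 0 at an unadjusted edgeR p below 0.05. By edgeR 0% and 11.8% of all genes were below these. In YZ6 the 10 genes other than Aass had a median ratio of 1.06, with none at 2 times, and in YZ2 0.808, with Pipox alone above 2 times, at 2.81.

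Wasl varied least of the 6. Its MaP R172H/- tumors ran from 40.8 in YZ11 through 78.9 to 448 CPM in YZ6. The MaP R245W/- values were 34.5, 61.0, 102, 102 and 113 CPM. In MaP -/- tumors they ran from 44.9 through 102 to 335 CPM in JM833-T1, with JM833-T2 at 291 CPM. The 2 highest MaP -/- tumors thus came from the same mouse. The edgeR log2 fold changes were -0.01 ± 0.58 (adjusted p = 0.994), -0.61 ± 0.52 (adjusted p = 0.656) and 0.56 ± 0.59 (adjusted p = 0.587). The first, close to 0, turned positive without any 1 of 7 tumors, at most to 0.33 without JM833-T1, and the third to -0.10 without YZ6.

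Of 21 genes of the N-WASP and Arp2/3 list, 2 passed in MaP R172H/- against MaP -/- tumors by edgeR, against 8.4% of all genes. Actr2, an actin-related subunit of Arp2/3, was lower at 244 ± 45.2 CPM (SD, n = 7) than at 389 ± 53.6 CPM (n = 6; adjusted p = 0.0487), and Wipf2, a WASP-interacting protein gene, was higher at 32.9 ± 5.26 than at 24.0 ± 5.43 CPM (edgeR adjusted p = 0.0357). Against MaP R245W/- tumors 5 passed, where 9.4% of all genes did. Actr2, Actr3, Arpc1a and Arpc4 were lower (log2 fold changes -0.93, -0.66, -0.65 and -0.68) and Wipf2 was higher (0.76). By DESeq2 the same genes passed and, in addition, Nck2 and Arpc5l in the first of these comparisons and Wasf2 in the second. Over all genes DESeq2 also called more than edgeR in both comparisons. MaP R245W/- against MaP -/- gave 0 by edgeR and DESeq2, with 3 at an unadjusted edgeR p below 0.05, against 0% and 11.8% of all genes by edgeR. The median log2 fold changes of the list were 0.06, 0.31 and -0.22 for R172H against null, R245W against null and R172H against R245W. The 20 genes other than Wasl had median ratios of 0.957 in YZ6, 0.939 in JM833-T1 and 1.12 in JM833-T2.

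Pot1a ran from 12.3 in YZ11 through 44.0 to 227 CPM in YZ6 among MaP R172H/- tumors. MaP R245W/- tumors stood at 23.2, 26.3, 33.6, 69.3 and 73.5 CPM. MaP -/- tumors measured 18.9 at the lowest, 52.3 in the median and 670.4 at the highest, in JM833-T2, where the next tumor, JM833-T1, was at 149 CPM. Every MaP R245W/- value lay within the range of both other groups. The edgeR log2 fold changes were -0.90 ± 0.82 (adjusted p = 0.530), -1.53 ± 0.85 (adjusted p = 0.494) and 0.59 ± 0.80 (adjusted p = 0.690). Without JM833-T2 the value for R172H against MaP -/- turned to 0.42, and without YZ6 the value between the mutants fell to -0.000485.

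None of the 12 genes of shelterin, the CST complex and telomerase passed in any comparison by edgeR or DESeq2, against 8.4%, 0% and 9.4% of all genes by edgeR. At an unadjusted edgeR p below 0.05 there were 1, 0 and 1 genes, against 24.7%, 11.8% and 25.9% of all genes, the first being Acd, which encodes the TPP1 partner of POT1 proteins, and the last Terf1, which encodes a double-strand telomere binder. Pot1b, the paralog of Pot1a, measured 17.4 ± 3.86 CPM in MaP R172H/- (SD, n = 7), 16.7 ± 9.96 CPM in MaP R245W/- (n = 5) and 21.7 ± 5.02 CPM in MaP -/- tumors (n = 6). In JM833-T2, where Pot1a was at 14.1 times, the 11 other genes had ratios from 0.834 to 1.52 with a median of 1.15.

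**Figure D5:**
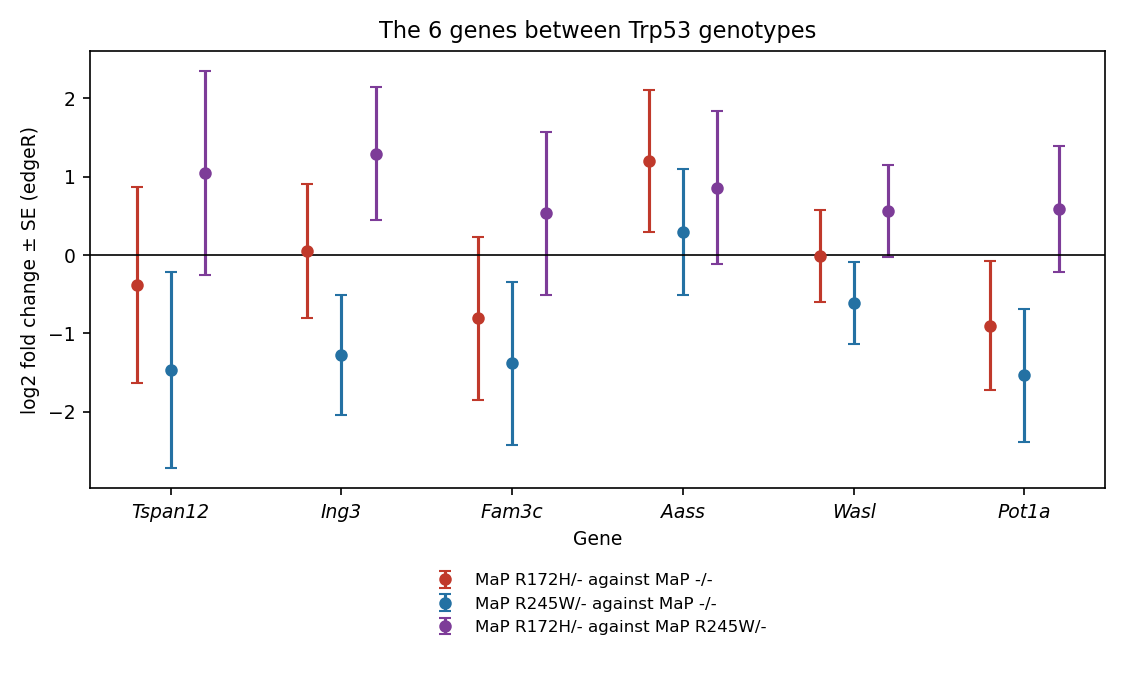
Points are edgeR log2 fold changes of the 6 genes with bars of 1 SE, for the 3 comparisons of Trp53 genotypes. The bars are 0.522 to 1.31 long on either side, and no gene had an adjusted p below 0.351.

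Of the 14 other protein-coding genes of the interval that passed the filter over 18 tumors, 11, 12 and 14 could be tested in the 3 comparisons. By edgeR 0 had an adjusted p below 0.05, against 8.4%, 0% and 9.4% of all genes. At an unadjusted p below 0.05 there was 1 in each, Cped1, Lmod2 and Kcnd2 respectively, against 24.7%, 11.8% and 25.9% of all genes. DESeq2 gave 0, 0 and 1 at an adjusted p below 0.05. Lmod2, a muscle actin nucleator gene with a median of 0.387 CPM, was at 40.7 times in JM1233, the tumor with 813 CPM of skeletal muscle markers, whose part in the value was not tested. Slc13a1, Asb15 and Tmem229a had medians of 0.126, 0.197 and 3.47 CPM. Their highest ratios were 49.2 in JM833-T2, 11.2 in YZ6 and 3.60 in JM833-T1. Slc13a1 was also at 46.1 times in JM663-T2, where none of the 6 genes was at 2 times its median. The 29 genes that did not pass the filter were 6 protein-coding genes, 13 processed pseudogenes, 2 lncRNAs, 3 miRNAs, 2 rRNAs and 3 snoRNAs.

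Outside the interval, the genes whose levels most resembled the mean profile of the 6 over the 18 tumors lay mostly on other chromosomes. The measure was the Pearson coefficient of log2(CPM + 0.5). The 10 highest were 9330159N22Rik (0.914), Gm47411 (0.907), Gm47405 (0.889) and the muscarinic receptor gene Chrm3 (0.856) on chromosome 13, 4930447A16Rik (0.896), Ncald (0.865) and Scube1 (0.865) on chromosome 15, Unc79 (0.869) and Gm15902 (0.861) on chromosome 12, and Gm26736 (0.853) on chromosome 6. 9330159N22Rik, Gm47411 and Gm47405 lie within the span of Chrm3, and 4930447A16Rik within that of Ncald, so reads of these genes may not be fully separated. The medians of 4930447A16Rik, Gm26736 and 9330159N22Rik were low, at 0.493, 0.502 and 0.691 CPM. YZ6 was the highest tumor for 7 of the 10, though at 3.003 to 5.98 times the median, below the 20.5 times of Tspan12. The profile was itself highest in YZ6, at a mean log2 ratio of 3.04, so genes picked for likeness to it tend to peak there. Of the interval's genes other than the 6, Wnt16 had the highest coefficient, 0.851, above those of Aass (0.812), Pot1a (0.808) and Wasl (0.807). Aass, Pot1a and Wasl are part of the profile, so their coefficients include their own values. Met had a coefficient of 0.341, which 5224 genes outside the interval exceeded.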

How the data were processed

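Stranded total RNA libraries of 18 mouse mammary tumors, depleted of ribosomal RNA, were analysed from the gene-level count table deposited by the authors. Per the labels and the study's methods, reads passed FastQC 0.11.9, were aligned to GRCm39 with STAR 2.7.10b and were counted per GENCODE M34 gene with RSEM 1.3.3, and the deposited counts are whole numbers with no normalization. Whether counting used strand is not given in the sources used here. Groups came from the treatment labels. Replicates of MaP -/- include pairs of tumors from the same mouse, so p-values partly measure the spread within mice. The study's list of sequenced tumors gives another tumor number than the labels for mice JM779 and JM836, and the labels were followed.

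Gene IDs were matched to the GENCODE M39 annotation of GRCm39 (56620 of 57126). CPM was the count over the tumor's total, and a ratio was CPM over the 18-tumor median CPM, with a pseudocount of 0.5 CPM on the log2 scale. Differential expression used edgeR 4.0.16 (filterByExpr, TMM, quasi-likelihood F-test, Benjamini-Hochberg adjustment) in R 4.3.3 on the 2 groups compared, or on all 3 groups for MaP R172H/- against MaP R245W/-, with DESeq2 1.42.0 as an alternative. Other alternatives were the scaling, the filter on low counts, the fold change threshold, summing the tumors of a mouse, the groups in the fit, the pseudocount, protein-coding genes alone in the windows, and leaving out tumors. Total counts were 23113578 to 37365062 per tumor. The edgeR test was tried on simulated data for each mutant group against MaP -/- tumors, and not for the direct comparison of the mutants. Promoters came from RefSeq (GRCm38.p6) and were placed on GRCm39 by exact match.

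The text names the 6 genes, Met, the other filtered protein-coding genes of the interval, the 3 nearest such genes on each side, the 10 genes outside most alike in profile, and list genes with an edgeR adjusted p below 0.05 or, failing those, with the lowest p. Fam3d, Pot1b, Ndp, Pipox, Gm42856, Gm30270, Dlst, Nck2, Arpc5l and Wasf2 were named after their values were seen. The genes and lists were chosen with earlier results of these data known. Intervals cover counting error only.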

Additional observations from a re-analysis of the deposited data

Results flagged for a closer look

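In 9 of 18 combinations of a gene and a genotype group, the highest tumor stood apart from the rest of its group by Dixon's criterion. The criterion was applied on the linear scale to the same CPM values by which the genes were chosen, so these are descriptions. Its nominal rate of about 1 flag in 20 groups does not apply here, also because the combinations share the same tumors. YZ6 was the tumor in 5 of them among the MaP R172H/- tumors, with Tspan12 at 1051 CPM (next tumor 107 CPM), Ing3 at 395 CPM (next 108.1 CPM), Fam3c at 3084 CPM (next 719 CPM), Wasl at 448 CPM (next 157 CPM) and Pot1a at 227 CPM (next 91.6 CPM). JM836-T1 was the tumor in 3 among the MaP -/- tumors, with Tspan12 at 1176 CPM (next 168 CPM), Ing3 at 385 CPM (next 62.9 CPM) and Fam3c at 5363 CPM (next 884 CPM). JM833-T2 was the tumor for Pot1a, at 670.4 CPM (next 149 CPM, in the other tumor of the same mouse). The gap to the next tumor took between 0.631 (Pot1a in YZ6) and 0.905 (Tspan12 in YZ6) of the group's whole range. No MaP R245W/- group and no lowest tumor was set apart in this way.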

How the results depend on the processing

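No paired analysis was possible because the replicate numbers of the groups only follow accession order and pair no tumors. None of the 6 genes reached an adjusted p of 0.05 in any alternative of the 3 comparisons, with lowest values of 0.205, 0.343 and 0.233 over 119, 108 and 149 gene and setting combinations (edgeR or DESeq2). The signs of the fold changes were less stable, and the cause was not tested. For MaP R172H/- against MaP -/- tumors, Ing3 turned to -0.32 with the tumors of a mouse summed, and Wasl, at -0.01, turned to 0.012 with DESeq2, 0.00777 without a filter on low counts, 0.19 with tumors of a mouse summed and 0.12 without the 4 mutant tumors whose Trp53 was no higher than in the highest MaP -/- tumor (low-Trp53 tumors). Leaving out each tumor in turn, the log2 fold changes ranged from -2.45 to 1.79 for Tspan12, -0.94 to 1.46 for Ing3, -2.09 to 1.03 for Fam3c, -0.68 to 0.33 for Wasl and -1.49 to 0.42 for Pot1a. For MaP R245W/- against MaP -/- tumors the same ranges were -1.99 to 0.69 for Tspan12, -1.47 to 0.12 for Ing3, -1.73 to 0.44 for Fam3c and -0.14 to 0.73 for Aass. For MaP R172H/- against MaP R245W/- tumors they were -1.02 to 1.57 for Tspan12, -0.74 to 0.89 for Fam3c, -0.10 to 0.75 for Wasl and -0.000485 to 0.84 for Pot1a. Over all genes, MaP R172H/- against MaP -/- gave 1051 calls, and 2128 with DESeq2, 615 with at least 10 counts in every tumor, 1760 with no fold change threshold, 287 with a log2 fold change above 2 and 740 to 1119 leaving out a tumor. MaP R245W/- against MaP -/- gave 0 calls, and 303 with DESeq2, 2 with all 3 groups fitted together and 0 to 3 leaving out a tumor (2 without JM1564 and 3 without JM779-T1). MaP R172H/- against MaP R245W/- gave 1392 calls, and 2405 with DESeq2, 657 with at least 10 counts in every tumor, 2114 with no fold change threshold, 526 with a log2 fold change above 2, 748 without the low-Trp53 tumors, and 1086 to 1548 leaving out a tumor. Of the 108 values, 27 were at 2 times the median or more and 17 at 3 times, and 25 with the median taken without the 4 low-Trp53 tumors. For the windows, protein-coding genes alone changed the order of 2 windows beyond the interval in JM833-T2. With TMM or DESeq2 scaling, all 108 ratios moved by less than 1 SD of their group. These SDs include the highest tumors, such as 382 CPM for Tspan12 in MaP R172H/- tumors, so few ratios could move that far. The count at 2 times was 27 with TMM and 26 with DESeq2 scaling. With the median of the same instrument it was 29, and 3 of the 108 ratios moved by more than the SD. The median coefficient with Met was 0.0917 on linear CPM, 0.412 in the MaP R245W/- and MaP -/- tumors and -0.23 without the 4 tumors with the lowest Met. The alternatives that leave out these low-Met or low-Trp53 tumors were chosen after seeing the data. Depth limited Aass most, at 8 counts in YZ11.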

Other observations

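The Rosa26 LSL-TdTomato reporter in the genotype labels was set beside the levels of the 6 genes after the values were seen. Among the 12 tumors with a Trp53 mutant, 5 of the 6 with the reporter had at least 1 of the 6 genes at 2 times its median or more, and 0 of the 6 without it. The mean log2 ratio of the 6 genes was 3.04 in YZ6, 1.02 in YZ2, 0.90 in RM0014, 0.87 in JM1564, 0.35 in YZ10 and -1.30 in JM1233, all with the reporter. In the 6 tumors without it the mean log2 ratio ran from -2.09 in YZ11 to 0.14 in YZ3, with a median of -0.83. The share of all genes at 2 times the median or more was 4.68% to 12.4% with the reporter and 4.13% to 13.7% without. MaP -/- tumors carried no reporter by their labels, and 3 of these 6 had at least 1 gene at 2 times its median. Tumors of each genotype on both sides were few, and the part of the reporter allele in these values was not tested.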
